A study of Homo sapiens with 18 samples.

Results

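Integrins are the adhesion receptors that tie a cell to its matrix, and laminins are matrix proteins that several of them bind. The genes described here are those whose symbol names an integrin alpha chain (ITGA), an integrin beta chain (ITGB) or a laminin alpha, beta or gamma chain (LAMA, LAMB, LAMC). They were chosen by a rule on the symbol, set with earlier results of these data known. Each of the 3 expression tables lists 38 of them, 18 alpha chains, 8 beta chains and 12 laminin chains, out of 25673 genes for PBRM1, 25540 for IRF1 and 25557 for MUC1. The level asked of a gene was 1 TPM or more (TPM gives the abundance of a transcript per length, with the same total in each library) in 3 or more of a table's 6 libraries, and 17 of the 38 reached it in the PBRM1 table, 13 in the IRF1 table and 23 in the MUC1 table. Over all tables, 25 reached it at least once (10 integrin alpha, 5 integrin beta and 10 laminin chains) and 13 reached it in all 3. The 13 that never did were ITGA2B, ITGA8, ITGA9, ITGA11, ITGAD, ITGAL, ITGAM, ITGAX, ITGB2, ITGB6, ITGB7, LAMA2 and LAMB4.

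The RNA-seq libraries numbered 18, in 6 groups with 3 each, all from triple-negative breast cancer (TNBC) lines, which lack the estrogen and progesterone receptors and HER2 amplification. BT-549 cells, a line with wild-type BRCA1, carrying a stable shPBRM1 were set against BT-549 cells labelled as their control. The paper pairs BT-549 cells silenced for PBRM1 with control shRNA cells, but the column names of this group give no hairpin. BT-549 cells with a stable shIRF1 were set against their own control shRNA group. MDA-MB-436/tet-MUC1shRNA cells, a BRCA1-mutant line with a doxycycline-inducible MUC1 hairpin, were treated with DOX at 500 ng/ml or with vehicle (DMSO). PBRM1 is a subunit of the PBAF chromatin remodeling complex, IRF1 a transcription factor of the interferon response, and MUC1 a membrane mucin whose C-terminal subunit signals in cancer cells. Cells that received a hairpin vector were selected for puromycin resistance. The labels do not show whether the controls of the shPBRM1 cells were. If they were not, effects of vector or selection cannot be told apart from PBRM1 silencing. Each arm rests on 1 hairpin label in 1 line, and the replicates were cultures grown in triplicate, so p-values measure the spread between cultures. No DOX-treated group with a control hairpin was analysed here, so that an effect of DOX and one of MUC1 silencing cannot be told apart. In bulk RNA, fewer cells of a kind and less RNA per cell cannot be told apart either.

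An integrin is a pair of 1 alpha and 1 beta chain. ITGB1 pairs with most alpha chains, ITGB4 with ITGA6 alone, and ITGAV with ITGB1, ITGB3, ITGB5, ITGB6 or ITGB8. A laminin is a trimer of an alpha, a beta and a gamma chain. Laminin with the chains LAMA3 and LAMB3 anchors epithelial cells to the basement membrane through ITGA3 and ITGA6, and ITGA6 with ITGB4 forms the core of the hemidesmosome.

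The targeted genes were lower in the silenced cells. PBRM1 had 3.22, 2.69 and 2.95 TPM in shPBRM1 cells, against 12.3, 10.7 and 12.6 TPM in control cells. IRF1 had 1.03, 1.30 and 1.18 TPM in shIRF1 cells, against 5.22, 4.49 and 4.54 TPM in control cells. MUC1 had 3.65, 2.71 and 2.73 TPM with DOX, against 6.37, 4.97 and 5.55 TPM with vehicle. None of these groups overlapped. Every column of TPM sums to 1000000, and short noncoding RNAs took 75.5% to 79.2% of it for PBRM1, 84.8% to 88.5% for IRF1 and 12.01% to 15.1% for MUC1, which puts all other genes on a lower scale in BT-549. Levels were therefore compared within a table. Of the other cell types that carry integrins of their own, markers of endothelial cells and of platelets stayed below the level in every table (0 of 4 and 0 of 3). Of 9 leukocyte markers, CD68 reached it in each table and CD14 in the MUC1 table, whereas PTPRC, which marks all leukocytes, had at most 0.0483 TPM in BT-549 and 0.201 TPM in MDA-MB-436. These lists include genes of the set itself, ITGAM, ITGAX, ITGAL and ITGB2 as leukocyte markers and ITGA2B as a platelet marker. Of the receptors that TNBC lacks, ESR1 and PGR had at most 0.106 TPM in any library, and ERBB2 had 5.13 to 6.12, 1.57 to 2.77 and 15.9 to 20.4 TPM over the tables in that order.

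**Figure D1:**
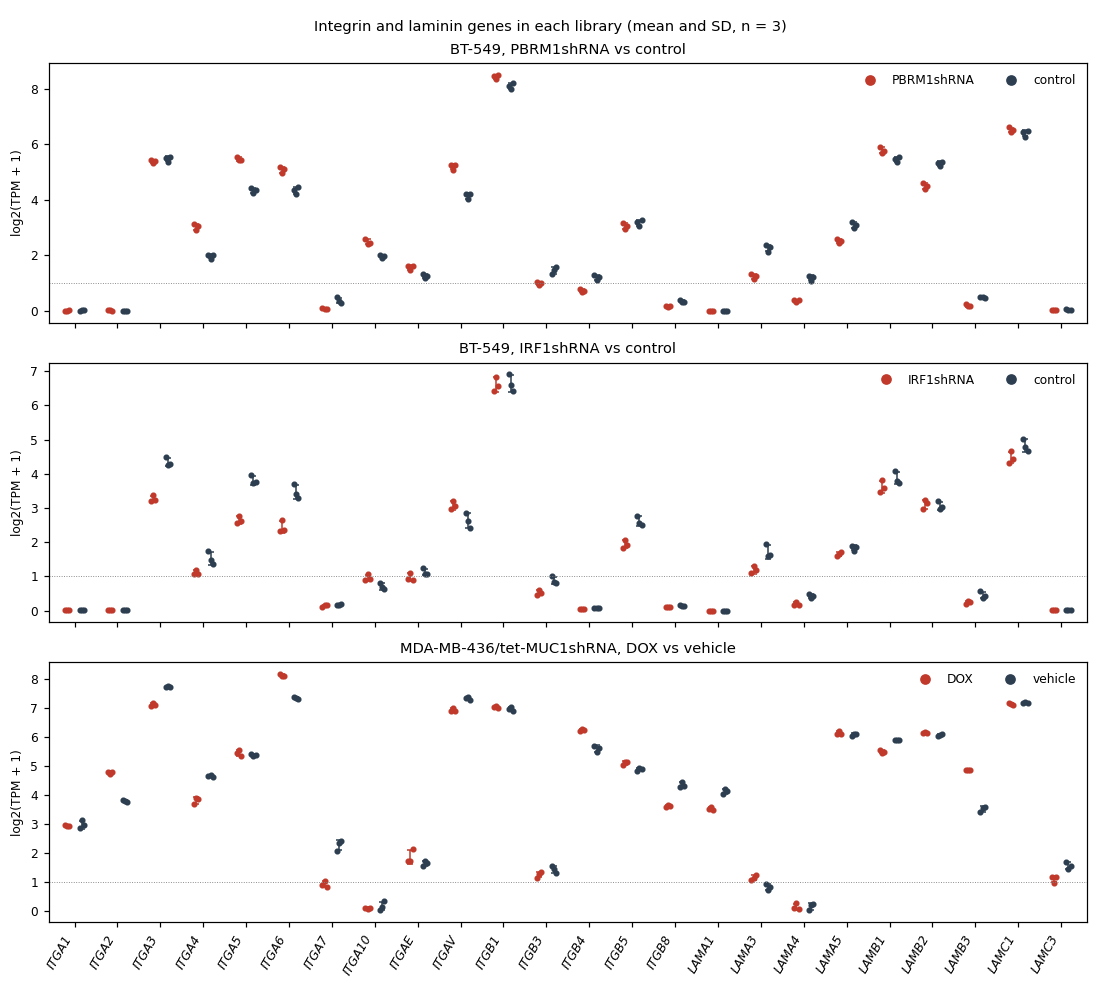
Level of the integrin and laminin genes named in the text that reached 1 TPM in at least 3 libraries of a table, as log2(TPM + 1) on the vertical axis, with 1 point per library, the mean and the SD (n = 3) for silenced or DOX-treated cells in red and control or vehicle cells in dark blue. The dotted line marks 1 TPM. ITGB1 is the highest gene in both BT-549 tables, and in MDA-MB-436 cells ITGA6 is the highest with DOX and ITGA3 with vehicle.

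ITGB1 led the integrin beta chains in every group, and ITGA3 led the alpha chains in all 3 control or vehicle groups. In BT-549 cells ITGB1 was the most abundant of all the genes described, at 345 ± 16.0 TPM in shPBRM1 cells and 272 ± 19.4 TPM in their controls (SD, n = 3 each), and at 97.2 ± 14.7 TPM in shIRF1 cells and 99.8 ± 17.1 TPM in theirs. It took 97.4% of the summed TPM of beta chains in shPBRM1 cells, against 96.0% in control cells. In MDA-MB-436 cells ITGB1 shared the class with ITGB4, ITGB5 and ITGB8, and took 51.7% with DOX, against 55.9% with vehicle. ITGA6 led the alpha chains there with DOX (282 ± 7.14 TPM), whereas with vehicle ITGA3 did (213 ± 2.63 TPM), followed by ITGA6 and ITGAV at 163 ± 2.75 and 163 ± 5.39 TPM, which do not differ beyond their spread. Among the genes that reached the level in MDA-MB-436 cells but in neither BT-549 table were ITGA1, ITGA2, ITGA7, ITGB8, LAMA1, LAMB3 and LAMC3, and ITGA10 and LAMA4 reached it in the PBRM1 table alone. LAMC1 led the laminin genes in each table.

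Promoter sequences are shown for 4 genes that the results turn on, because LAMA3, LAMB3 and ITGA5 held the letters bound by AP-1 near a start and ITGA6 changed in all 3 comparisons. ITGA4 and ITGAV also changed in all 3 comparisons, but held none of the motifs searched for and are not shown. The sequences shown were thus picked in part for their matches. They come from the RefSeq promoter table on GRCh38.p14, which held 18 of the 25 genes, with ITGA3, ITGA7, ITGB3, ITGB4, LAMA1 and LAMC3 among those without an entry. Each stretch runs 5′ to 3′ on the gene's strand from 150 bases before to 10 bases after an annotated start, and capitals mark TGANTCA (AP-1) and GGGCGG (the GC box bound by SP proteins) or its reverse complement.
LAMA3, chr18:23872870-23873029, plus strand, a start inside the gene: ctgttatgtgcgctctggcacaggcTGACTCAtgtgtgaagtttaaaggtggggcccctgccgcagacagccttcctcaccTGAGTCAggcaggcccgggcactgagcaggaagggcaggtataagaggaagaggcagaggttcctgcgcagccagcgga
LAMB3, chr1:209651365-209651524, minus strand, 1 of 3 annotated starts: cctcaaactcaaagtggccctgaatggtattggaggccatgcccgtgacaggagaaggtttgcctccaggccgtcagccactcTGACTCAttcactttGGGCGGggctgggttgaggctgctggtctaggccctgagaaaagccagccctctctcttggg
ITGA5, chr12:54419257-54419416, minus strand: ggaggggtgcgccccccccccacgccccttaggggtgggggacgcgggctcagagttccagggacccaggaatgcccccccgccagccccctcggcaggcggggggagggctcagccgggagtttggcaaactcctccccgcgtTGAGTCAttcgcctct
ITGA6, chr2:172427436-172427595, plus strand, 1 of 2 annotated starts: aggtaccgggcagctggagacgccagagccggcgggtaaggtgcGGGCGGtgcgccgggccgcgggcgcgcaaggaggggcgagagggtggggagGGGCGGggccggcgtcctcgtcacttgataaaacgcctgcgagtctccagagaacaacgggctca

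In the GENCODE release 29 gene models on GRCh38, the genes described below with a log2 fold past 1 in a comparison lie at chr2:181457202-181536187 (ITGA4), chr12:54395261-54419460 (ITGA5), chr2:186590065-186680901 (ITGAV), chr17:50055968-50090481 (ITGA3), chr2:172427354-172506282 (ITGA6), chr12:55684568-55716043 (ITGA7), chr18:23689443-23956222 (LAMA3) and chr1:209614870-209652466 (LAMB3). Values are per gene and do not separate isoforms. Of the 38 genes 18 share exon bases with a gene on the opposite strand and 6 with one on the same strand. Whether the counting used strand is not stated, so the values of genes with an overlap are uncertain. On the opposite strand they include ITGA5 (AC079313.1), ITGA6 (ITGA6-AS1 among others), ITGAV (AC017101.1), ITGB1 (ITGB1-DT), ITGA10, ITGB8, LAMA1 and LAMA4. On the same strand they include ITGB3 (AC068234.1) and LAMB3 (MIR4260). Further overlaps are named with the genes below.

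The windows searched were 300 bases long (250 before to 50 after a start), on both strands, and the 18 genes had 25 of them. TGANTCA stood in 3 of these 25 windows and in 7.71% of all 35116 windows in the table. GGGCGG stood in 17 of 25 (68.0%), against 45.0% of all windows. AANNGAAA, the core that IRF proteins bind, stood in 4 of 25 (16.0%), of ITGA10, ITGB1 and ITGB5, against 22.8% of all windows. No matches to different motifs shared bases in these windows. Which start these cells used, and whether a factor was bound, was not measured.

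PBRM1 silencing in BT-549 cells was accompanied by higher levels of 6 of the 7 integrin alpha chains tested and by lower levels of LAMA3, LAMA4 and LAMA5. By limma on log2(TPM + 1), 8 of the 17 genes tested were higher and 6 lower at an adjusted p under 0.05 (47.1% and 35.3%), against 24.6% higher and 34.8% lower of all 10639 genes tested. The share that was lower is close to that background. With a log2 fold past 1 in addition, 3 were higher (ITGA4, ITGA5 and ITGAV) and 1 lower (LAMA3), against 1.02% and 3.86% of all genes. Of the 6 lower genes 2 (ITGB4 and LAMA4) reached 1 TPM in their control libraries alone. ITGB3, also lower, would not have been tested without its control libraries either. The count of lower genes therefore rests in part on that filter. The median log2 fold was 0.12 over the 17 genes and -0.05 over all genes. The summed TPM of alpha chains was 167 ± 9.42 in shPBRM1 cells and 107 ± 7.07 in control cells, while that of laminin alpha chains was 6.72 ± 0.448 in shPBRM1 cells and 13.4 ± 1.11 in control cells. SEs in both BT-549 fits follow the level of a gene and not its own spread, because limma estimated infinite prior degrees of freedom there. Without a filter limma gave ITGA5 the same log2 fold of 1.13 with an adjusted p of 3.62e-05, against 8.16e-37 with it.

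ITGA5, which pairs with ITGB1 as the main fibronectin receptor, had 45.9, 42.2 and 42.1 TPM in shPBRM1 cells, against 20.4, 18.1 and 19.5 TPM in control cells. The groups lay far apart, and the log2 fold was 1.13 (SE 0.09, adjusted p = 8.16e-37). ITGAV, whose pairs bind vitronectin and other ligands with an RGD sequence, had 37.1, 33.0 and 37.5 TPM in shPBRM1 cells, against 17.4, 15.2 and 17.4 TPM in control cells. It was higher in every silenced library, with a log2 fold of 1.06 (SE 0.09, adjusted p = 1.65e-32). ITGA4, a receptor for VCAM1 and fibronectin that is best known from leukocytes, had 7.71, 6.53 and 7.27 TPM in shPBRM1 cells, against 2.995, 2.68 and 3.07 TPM in control cells. Its log2 fold was also 1.06 (SE 0.09, adjusted p = 7.58e-33), and the leukocyte marker PTPRC had 0.00481 to 0.0121 TPM in shPBRM1 cells and 0.0416 to 0.0483 TPM in control cells.

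The laminin receptors split. ITGA6 had 35.4, 30.1 and 33.5 TPM in shPBRM1 cells, against 19.3, 17.5 and 20.9 TPM in control cells, a log2 fold of 0.75 (SE 0.09, adjusted p = 9.31e-17) with no overlap. ITGA3, the most abundant alpha chain of the control cells, had 42.6, 39.0 and 40.8 TPM in shPBRM1 cells, against 44.5, 40.6 and 46.2 TPM in control cells. These groups overlapped and ITGA3 did not pass the test (log2 fold -0.10, SE 0.09, adjusted p = 0.336), though it was lower with the replicate number as a block (adjusted p = 0.0425), with short noncoding RNAs removed (-0.18, adjusted p = 0.000484), with quantile scaling (-0.16, adjusted p = 0.000963) and with array weights (-0.13, adjusted p = 9.1e-06). As the other alpha chains rose around it, ITGA3 took 24.4% ± 0.336 of the alpha chain TPM in shPBRM1 cells and 41.0% ± 0.411 in control cells (SD, n = 3 each), a share that does not depend on the scale of the table. ITGA5 took 26.0% in shPBRM1 cells, against 18.1% in control cells, and ITGAV 21.5%, against 15.6%. The collagen receptor chain ITGA10 (log2 fold 0.52) and ITGAE (0.31), a partner of ITGB7 that binds E-cadherin, were higher as well. Exons of ITGAE overlap HASPIN on the other strand.

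Among the beta chains ITGB1 had 350, 327 and 358 TPM in shPBRM1 cells, against 272, 253 and 291 TPM in control cells. It was higher in all 3 silenced libraries (log2 fold 0.34, SE 0.08, adjusted p = 0.000145), but with quantile scaling the log2 fold was 0.05 (adjusted p = 0.114). ITGB3 and ITGB5 each pair with ITGAV to bind vitronectin. ITGB3 was lower, at 1.04, 0.908 and 1.02 TPM in shPBRM1 cells, against 1.54, 1.75 and 1.99 TPM in control cells (log2 fold -0.47, SE 0.08, adjusted p = 2.5e-09). ITGB3 would not have reached the level without the control libraries, so that a lower value was in part built into its selection. ITGB5 had 7.89, 6.67 and 7.28 TPM in shPBRM1 cells, against 8.30, 7.33 and 8.59 TPM in control cells, and did not pass the test (log2 fold -0.13, adjusted p = 0.187), though it was lower with the replicate block (adjusted p = 0.0134), with short noncoding RNAs removed (-0.23, adjusted p = 0.00138), with array weights (adjusted p = 1.59e-08) and without control library 2 (adjusted p = 0.0212). ITGAV was thus higher while neither of these partners was. ITGB4, which pairs with ITGA6, was lower at 0.748, 0.600 and 0.654 TPM in shPBRM1 cells, against 1.45, 1.14 and 1.32 TPM in control cells (log2 fold -0.46, SE 0.07, adjusted p = 7.46e-10). ITGB4 reached the level through the control libraries alone, so that a lower value was built into its selection. It stayed far below ITGB1 in both groups.

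LAMA3, LAMA4 and LAMA5 reached the level and were lower in shPBRM1 cells, LAMA4 having reached it through the control libraries alone. LAMA3 had 1.51, 1.21 and 1.37 TPM in shPBRM1 cells, against 4.15, 3.41 and 3.89 TPM in control cells. The ratio of mean TPM was 0.357, and the log2 fold on the log2(TPM + 1) scale, which understates the change of low genes, was -1.03 (SE 0.08, adjusted p = 2.92e-35). That log2 fold passed -1 narrowly. It was -0.98 without shPBRM1 library 2 and -0.98 without control library 1, while the adjusted p stayed at or below 2e-04 in each of 14 alternatives. LAMA4, a chain of laminins in vessel walls and muscle, had 0.304, 0.240 and 0.309 TPM in shPBRM1 cells, against 1.43, 1.14 and 1.32 TPM in control cells. It was lower in every silenced library, at a TPM ratio of 0.220 and a log2 fold of -0.84 (SE 0.07, adjusted p = 1.02e-31). LAMA5, the widespread alpha chain of adult basement membranes, had 4.98, 4.46 and 4.70 TPM in shPBRM1 cells, against 8.12, 7.001 and 7.58 TPM in control cells (log2 fold -0.58, SE 0.09, adjusted p = 1.95e-10). LAMA5 fell less than the other alpha chains and so took 70.1% of laminin alpha TPM in shPBRM1 cells, against 56.7% in control cells. LAMA5 exons overlap ADRM1 on the other strand.

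The laminin beta chains moved apart. LAMB2 had 23.1, 19.8 and 21.6 TPM in shPBRM1 cells, against 39.4, 36.3 and 40.2 TPM in control cells, with a log2 fold of -0.82 (SE 0.09, adjusted p = 9.1e-20). LAMB1 had 59.0, 51.0 and 53.4 TPM in shPBRM1 cells, against 43.5, 39.9 and 45.8 TPM in control cells, with a log2 fold of 0.33 (SE 0.09, adjusted p = 0.000354). LAMB1 therefore took 71.6% ± 0.419 of laminin beta TPM in shPBRM1 cells and 52.5% ± 0.526 in control cells. Exons of LAMB1 overlap DLD on the other strand. LAMC1, the gamma chain that both beta chains assemble with, had 96.6, 85.8 and 90.3 TPM in shPBRM1 cells, against 85.5, 76.3 and 89.4 TPM in control cells. The groups overlapped and it did not pass the test (log2 fold 0.12, adjusted p = 0.227), though it was higher with the replicate block (adjusted p = 0.0117), with trimmed-mean scaling (0.18, adjusted p = 0.000344) and with array weights (adjusted p = 0.0103).

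The partners of these genes, listed by role, changed in both directions. Of all 10639 genes tested 24.6% were higher and 34.8% lower (median log2 fold -0.05). Of 26 tested genes for focal adhesion adaptors and signalling 9 were higher and 3 lower (median log2 fold 0.04). BCAR1, a docking protein of focal adhesions, had the most negative log2 fold of them, at 6.71 ± 0.289 TPM in shPBRM1 cells and 17.5 ± 1.12 TPM in control cells, while VCL (log2 fold 0.57), PXN (0.55) and ITGB1BP1 (0.66) were higher. Of 16 integrin ligands other than laminins and collagens 4 were higher and 9 lower (median log2 fold -0.43). FN1, fibronectin itself, had 13.9 ± 1.45 TPM in shPBRM1 cells and 37.0 ± 3.43 TPM in control cells (log2 fold -1.35, adjusted p = 1.82e-52), opposite in direction to its receptor chains ITGA5, ITGAV and ITGA4. MFGE8, a ligand of ITGAV pairs, was lower too (-1.30), whereas POSTN, periostin, had 14.2 ± 0.932 TPM in shPBRM1 cells and 4.29 ± 0.328 TPM in control cells (log2 fold 1.52), and EDIL3, another ITGAV ligand, had a log2 fold of 1.04. Of 14 genes that anchor laminins or build hemidesmosomes 3 were higher and 7 lower (median log2 fold -0.19). AGRN, a laminin-binding proteoglycan, had 4.20 ± 0.135 TPM in shPBRM1 cells and 28.1 ± 1.82 TPM in control cells (log2 fold -2.48), and BCAM, a receptor for LAMA5, 0.922 ± 0.0276 TPM in shPBRM1 cells and 7.43 ± 0.379 TPM in control cells (-2.13). NID2, which links laminin to collagen, was also lower (-0.91), and DAG1, the dystroglycan receptor for laminin and agrin, was higher (0.82). MFGE8, BCAM and NID2 were among several lower genes of these lists that were tested only because their control libraries reached 1 TPM. The counts of lower ligands and of lower anchoring genes therefore rest in part on that filter.

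Markers moved with these results. The summed TPM of 4 epithelial markers was 34.0 to 39.9 in shPBRM1 cells and 3.90 to 4.57 in control cells, through KRT18 and KRT8, while CDH1 had 0.158 to 0.251 TPM in shPBRM1 cells and 0.570 to 0.772 TPM in control cells, and EPCAM at most 0.0650 TPM. The 4 mesenchymal markers, all past the level, summed to 461 to 515 TPM in shPBRM1 cells and 403 to 465 TPM in control cells, ranges that overlap and are mostly VIM. They split, with VIM at 394 to 436 TPM in shPBRM1 cells and 324 to 370 TPM in control cells and CDH2 at 45.5 to 54.1 TPM in shPBRM1 cells and 33.0 to 39.6 TPM in control cells, whereas ZEB1 had 9.37 to 9.80 TPM in shPBRM1 cells and 13.5 to 16.2 TPM in control cells, and FN1 was lower as given above. The 9 leukocyte markers summed to 12.5 to 13.8 TPM in shPBRM1 cells and 31.0 to 35.4 TPM in control cells, nearly all of it CD68. Their part in the results was not tested.

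**Figure D2:**
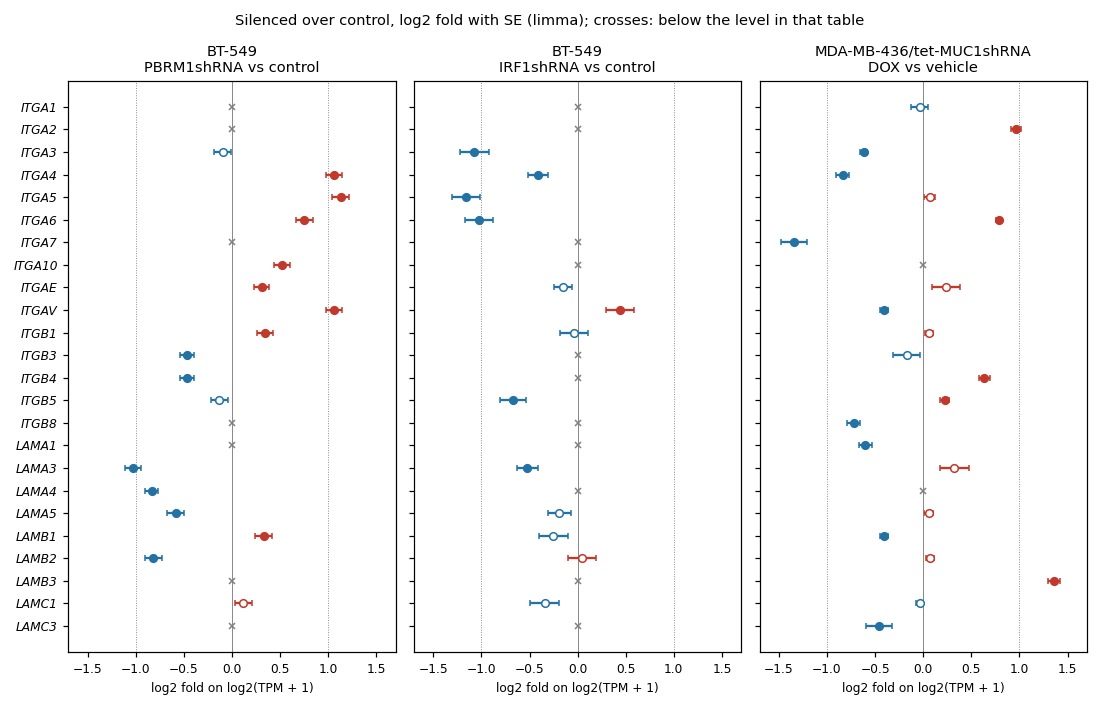
Log2 fold on the log2(TPM + 1) scale (horizontal axis) with its SE from limma for each gene named in the text (rows) in the 3 comparisons, silenced or DOX-treated over control or vehicle. Filled points passed an adjusted p under 0.05, open points did not, crosses mark genes below the level in that table, and dotted lines stand at -1 and 1. ITGA4, ITGA5 and ITGA6 lie to the right with PBRM1 silencing and to the left with IRF1 silencing.

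IRF1 silencing in the same line was accompanied by lower levels of ITGA3, ITGA5 and ITGA6, with ITGAV the exception. Of the 13 genes tested 1 was higher and 6 lower at an adjusted p under 0.05, against 5.76% higher and 18.5% lower of all 9135 genes tested. With a log2 fold past 1, 0 were higher (0 also at an unadjusted p under 0.05 by limma) and 3 lower, against 0.0547% and 1.78% of all genes. The median log2 fold was -0.34 over the 13 genes and -0.06 over all genes. Calls depended on scaling in this table. The share of all passing genes that were higher was 23.7%, but 54.6% with short noncoding RNAs removed before scaling, 49.2% with trimmed-mean scaling and 56.4% with quantile scaling, and it was 48.8% without control library 1, in which short noncoding RNAs took 84.8% of TPM, against 87.3% and 87.9% in the other control libraries. Over the same scalings the share in the PBRM1 table was 41.4%, 30.3%, 50.7% and 56.7%, and the median of all genes there was -0.17 with short noncoding RNAs removed.

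ITGA5 had 4.88, 5.86 and 5.10 TPM in shIRF1 cells, against 14.5, 12.2 and 12.4 TPM in control cells. The groups stood well apart, with a log2 fold of -1.16 (SE 0.15, adjusted p = 1.9e-13), and it was lower with a log2 fold past -1 in all 15 alternatives. ITGA3 had 8.17, 9.31 and 8.49 TPM in shIRF1 cells, against 21.5, 18.1 and 18.5 TPM in control cells (log2 fold -1.08, SE 0.15, adjusted p = 3.13e-11), and was past -1 in 14 of 15 alternatives. ITGA6 had 3.97, 5.28 and 4.10 TPM in shIRF1 cells, against 12.04, 9.51 and 8.79 TPM in control cells (log2 fold -1.03, SE 0.15, adjusted p = 7.99e-11). All 3 were lower in every shIRF1 library than in any control library. ITGA6 kept an adjusted p of at most 0.00985 in 15 alternatives, but was past -1 in only 10 of them. Its log2 fold was -0.90 without control library 1, -0.96 without shIRF1 library 1 and -0.98 without shIRF1 library 3. It was -0.96 with trimmed-mean and -0.93 with quantile scaling.

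ITGAV went the other way. It had 6.83, 8.23 and 7.26 TPM in shIRF1 cells, against 6.21, 5.12 and 4.37 TPM in control cells. The groups did not overlap, and the log2 fold was 0.45 (SE 0.15, adjusted p = 0.0123), but leaving out shIRF1 library 2 or 3 or control library 2 or 3 gave adjusted p of 0.0694, 0.0951, 0.108 and 0.121. On the scale-free share, ITGAV took 25.6% ± 0.304 of alpha chain TPM in shIRF1 cells and 10.1% ± 0.773 in control cells. ITGA3 took 29.8% ± 0.963 in shIRF1 cells and 37.5% ± 1.26 in control cells, and remained the leading alpha chain of both groups. ITGA4 had 1.08, 1.30 and 1.12 TPM in shIRF1 cells, against 2.32, 1.77 and 1.59 TPM in control cells (log2 fold -0.41, SE 0.10, adjusted p = 0.000774). ITGAE overlapped between the groups, with 0.970 ± 0.161 TPM in shIRF1 cells and 1.19 ± 0.144 TPM in control cells (adjusted p = 0.236).

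The common beta chain did not follow the alpha chains. ITGB1 had 85.2, 114 and 92.8 TPM in shIRF1 cells, against 119, 95.9 and 85.0 TPM in control cells. The groups overlapped, the log2 fold was -0.04 (SE 0.15, adjusted p = 0.907), and its sign turned with scaling (0.08, 0.04 and 0.15 by the 3 other scalings, the last with an adjusted p of 0.0266). The summed TPM of alpha chains was 29.1 ± 2.95 in shIRF1 cells and 51.7 ± 6.22 in control cells, while that of beta chains was 101 ± 15.1 in shIRF1 cells and 106 ± 17.9 in control cells. ITGB5 had 2.55, 3.17 and 2.82 TPM in shIRF1 cells, against 5.80, 4.95 and 4.62 TPM in control cells, and was lower (log2 fold -0.67, SE 0.14, adjusted p = 1.81e-05) although its partner ITGAV was not.

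Of the laminin chains, LAMA3 passed the test. It had 1.12, 1.48 and 1.26 TPM in shIRF1 cells, against 2.83, 2.02 and 2.07 TPM in control cells (log2 fold -0.52, SE 0.11, adjusted p = 2.91e-05), lower in every silenced library, and it took 34.8% ± 2.32 of laminin alpha TPM in shIRF1 cells and 42.7% ± 3.10 in control cells. LAMC1 had 19.1, 24.3 and 20.8 TPM in shIRF1 cells, against 31.5, 26.5 and 24.1 TPM in control cells. It did not pass (log2 fold -0.34, adjusted p = 0.0873), nor did LAMA5 (-0.19, adjusted p = 0.28), LAMB1 (-0.25, adjusted p = 0.235) or LAMB2 (0.04, adjusted p = 0.88). With the 3 other scalings LAMC1 passed, at log2 folds of -0.24, -0.27 and -0.25, and so did LAMB1, at -0.15, -0.18 and -0.13. LAMB2 passed in the other direction with short noncoding RNAs removed (0.17) and with quantile scaling (0.13).

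Among the partners, 0 of 26 focal adhesion genes were higher (0 also at an unadjusted p under 0.05 by limma) and 5 lower (median log2 fold -0.20). Of all 9135 genes tested 5.76% were higher and 18.5% lower (median log2 fold -0.06). The share of focal adhesion genes that were lower is close to that background. CAV1, which organizes caveolae, had 41.1 ± 4.25 TPM in shIRF1 cells and 77.1 ± 12.8 TPM in control cells (log2 fold -0.88, adjusted p = 9.48e-08), and the kindlin FERMT1 (-0.57), KANK1 (-0.57) and the kinase SRC (-0.48) were lower too. FERMT1 and KANK1 were tested only because their control libraries reached 1 TPM, as was NOV among the ligands. The counts of lower genes in these lists therefore rest in part on that filter. Of 14 integrin ligands 1 was higher and 6 lower (median log2 fold -0.32). TGFBI, a matrix ligand of several integrins, had 9.61 ± 1.32 TPM in shIRF1 cells and 38.1 ± 4.96 TPM in control cells (log2 fold -1.88, adjusted p = 2.77e-33), and NOV (-1.09), TGFB1 (-0.92) and THBS1 (-0.86) were lower. FN1 had 16.7 ± 2.34 TPM in shIRF1 cells and 22.1 ± 3.69 TPM in control cells and did not pass (log2 fold -0.38, adjusted p = 0.0514). Of 10 genes for laminin anchoring 1 was higher, the syndecan SDC4 (0.51), and 3 lower, SDC1 (-1.15), AGRN (-0.57) and the hemidesmosome linker PLEC (-0.52). The epithelial markers summed to 0.827 to 1.01 TPM in shIRF1 cells and 1.73 to 2.37 TPM in control cells, with EPCAM and CDH1 at most 0.0552 TPM, the mesenchymal markers to 224 to 272 TPM in shIRF1 cells and 310 to 414 TPM in control cells, and the leukocyte markers to 5.98 to 6.91 TPM in shIRF1 cells and 8.18 to 9.36 TPM in control cells. Their part in these results was not tested.

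**Figure D3:**
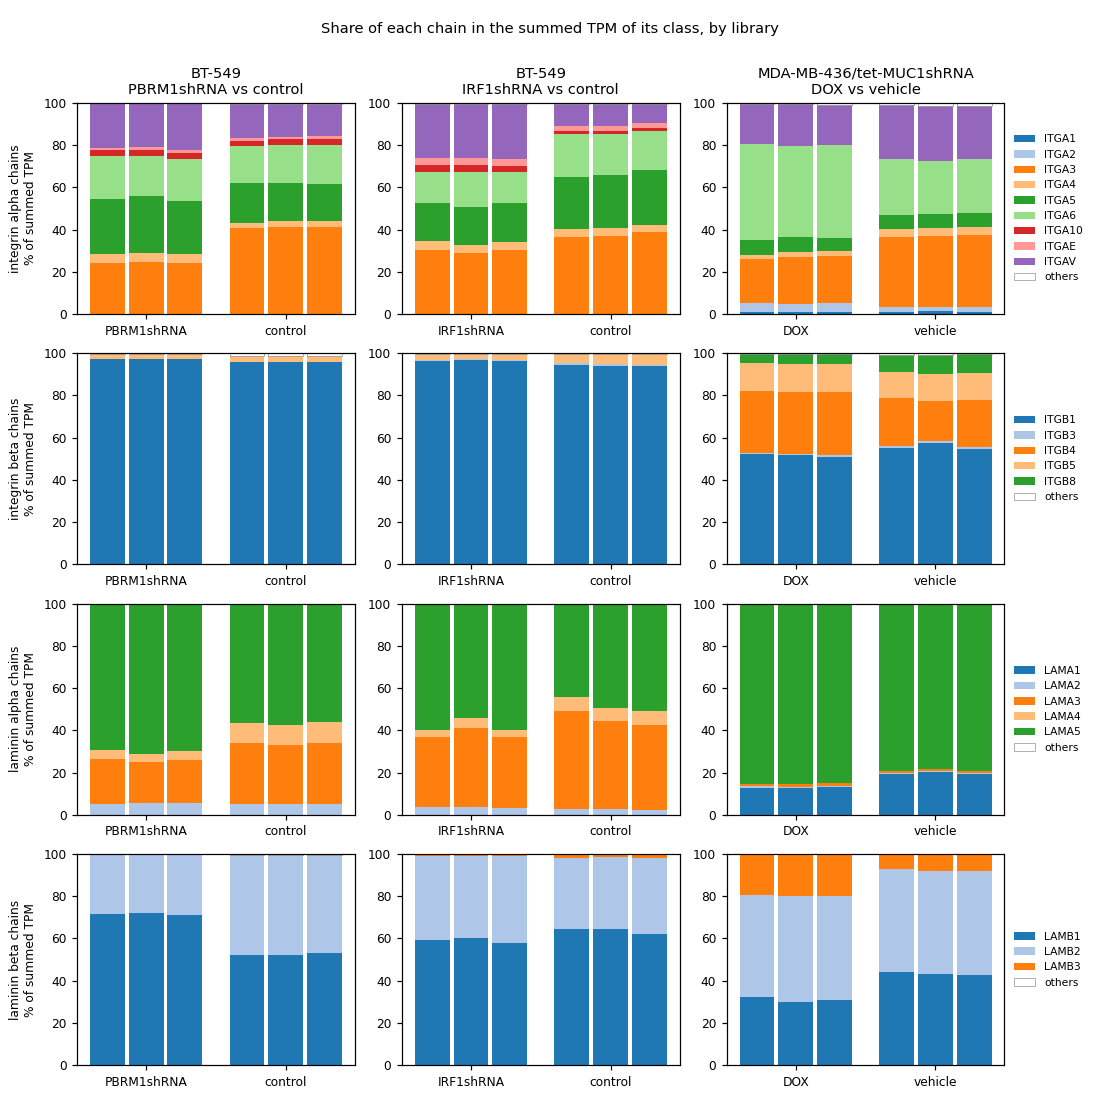
Share of each integrin chain and each laminin alpha or beta chain in the summed TPM of its class (vertical axis, percent) for every library, with silenced or DOX-treated libraries on the left of each panel, control or vehicle libraries on the right, and small shares pooled in white. ITGA3 takes 24.4% of alpha chain TPM in shPBRM1 cells and 41.0% in their controls, ITGAV 25.6% in shIRF1 cells and 10.1% in their controls, and LAMB3 19.8% of laminin beta TPM with DOX and 7.65% with vehicle.

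DOX treatment of MDA-MB-436/tet-MUC1shRNA cells was accompanied by higher levels of LAMB3, ITGA6, ITGB4 and ITGA2 and by lower levels of ITGA3, ITGAV and ITGA4. Of the 23 genes tested 6 were higher and 8 lower at an adjusted p under 0.05, against 27% higher and 23.4% lower of all 13229 genes tested. The share that was higher (26.1%) is close to that background. With a log2 fold past 1, LAMB3 was among the genes that were higher and ITGA7 was lower, where 1.34% of all genes were higher and 1.35% lower by the same rule. The median log2 fold was 0.06 over the 23 genes and 0.02 over all genes. Summed over the class, integrin alpha chains had 636 ± 11.7 TPM with DOX and 631 ± 9.10 TPM with vehicle, which overlapped. Integrin beta chains had 254 ± 5.46 TPM with DOX and 225 ± 4.98 TPM with vehicle, and laminin beta chains 144 ± 2.09 TPM with DOX and 137 ± 2.49 TPM with vehicle, both without overlap.

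LAMB3 had 28.5, 28.4 and 28.5 TPM with DOX, against 9.63, 10.7 and 11.2 TPM with vehicle. The mean TPM was 2.71 times as high, and the log2 fold was 1.36 (SE 0.06, adjusted p = 8.67e-07). It was past a log2 fold of 1 in all 15 alternatives. LAMA3, the alpha chain that LAMB3 assembles with, had 1.12, 1.22 and 1.41 TPM with DOX, against 0.910, 0.676 and 0.808 TPM with vehicle. LAMA3 stayed near 1 TPM and did not pass the test (log2 fold 0.32, SE 0.15, adjusted p = 0.0979) although its groups did not overlap, and it reached the level through the DOX libraries alone. LAMB3 took 19.8% of laminin beta TPM with DOX, against 7.65% with vehicle.

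ITGA6 had 290, 280 and 276 TPM with DOX, against 166, 162 and 160 TPM with vehicle. These values lie far apart, and the log2 fold was 0.79 (SE 0.03, adjusted p = 5.43e-07). Its partner ITGB4 had 73.1, 76.3 and 76.1 TPM with DOX, against 51.4, 43.9 and 49.1 TPM with vehicle (log2 fold 0.64, SE 0.06, adjusted p = 3.48e-05). Both chains of the hemidesmosomal integrin were thus higher, with ITGA6 at 44.4% ± 1.27 of alpha chain TPM with DOX and 25.8% ± 0.451 with vehicle, and ITGB4 at 29.6% ± 0.287 of beta chain TPM with DOX and 21.4% ± 2.0 with vehicle. ITGA2, a collagen receptor chain of epithelial cells and platelets, had 26.7, 25.4 and 27.2 TPM with DOX, against 13.3, 13.1 and 12.7 TPM with vehicle (log2 fold 0.97, SE 0.05, adjusted p = 2.43e-06). ITGB5 was slightly higher, at 32.1, 34.7 and 34.6 TPM with DOX, against 28.0, 29.5 and 29.02 TPM with vehicle (log2 fold 0.22, SE 0.05, adjusted p = 0.00604).

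**Figure D4:**
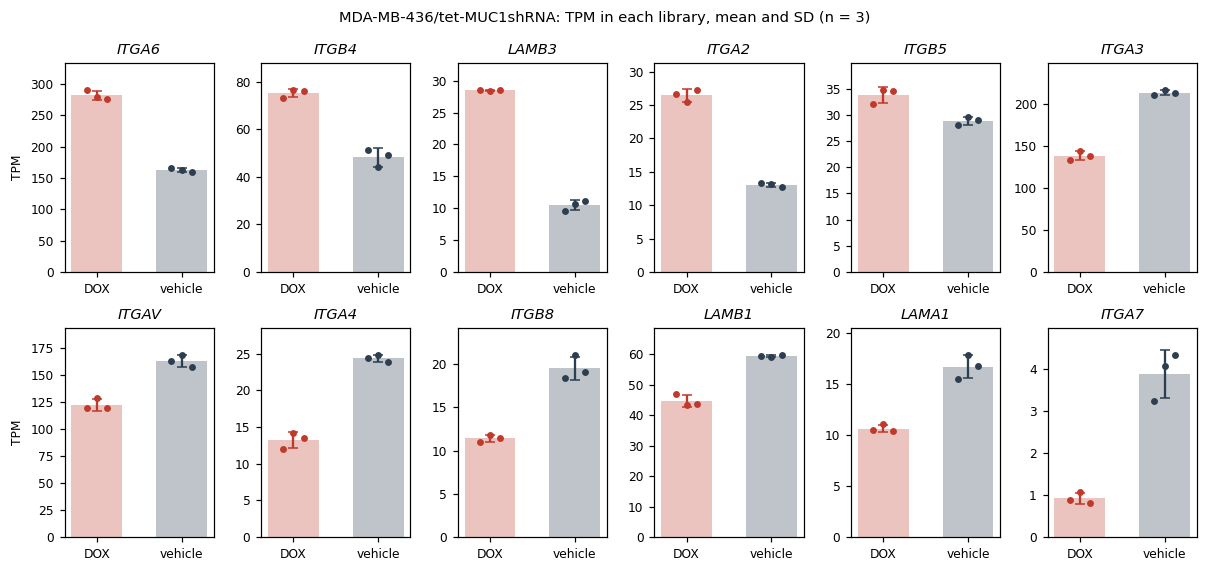
TPM (vertical axis, a separate scale in each panel) in the DOX and vehicle libraries of MDA-MB-436/tet-MUC1shRNA cells, with 1 point per library, bars for the mean and error bars for the SD (n = 3). The upper row starts with chains that were higher with DOX, such as LAMB3 at 28.5 TPM with DOX and 10.5 TPM with vehicle, and the genes from ITGA3 on were lower.

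ITGA3 had 133, 144 and 137 TPM with DOX, against 211, 216 and 212 TPM with vehicle (log2 fold -0.62, SE 0.04, adjusted p = 3.63e-06). It is the other receptor for the LAMA3 trimer, and it moved opposite to ITGA6. ITGAV had 119, 128 and 119 TPM with DOX, against 163, 168 and 157 TPM with vehicle (log2 fold -0.41, SE 0.04, adjusted p = 7.58e-05). Its partner ITGB8, which together with ITGAV activates latent TGF-beta, had 11.02, 11.9 and 11.4 TPM with DOX, against 18.4, 21.0 and 19.1 TPM with vehicle (log2 fold -0.72, SE 0.07, adjusted p = 3.77e-05). ITGAV and ITGB8 were both lower in every DOX library, while ITGB3 overlapped between the groups at 1.40 ± 0.155 TPM with DOX and 1.71 ± 0.228 TPM with vehicle (adjusted p = 0.32). ITGA4 had 12.01, 14.2 and 13.5 TPM with DOX, against 24.5, 24.8 and 23.9 TPM with vehicle (log2 fold -0.84, SE 0.07, adjusted p = 1.7e-05). ITGA7, a laminin receptor chain of muscle, had 0.882, 1.06 and 0.804 TPM with DOX, against 3.24, 4.07 and 4.31 TPM with vehicle. Its TPM ratio was 0.237 and its log2 fold -1.34 (SE 0.14, adjusted p = 6.06e-05), but its exons overlap METTL7B and BLOC1S1 on the other strand. ITGA7 would not have reached the level without the vehicle libraries, so that a lower value was in part built into its selection.

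LAMA1 and LAMB1, chains of the laminin of early embryos, were lower with DOX. LAMA1 had 10.4, 11.03 and 10.4 TPM with DOX, against 15.5, 17.8 and 16.7 TPM with vehicle (log2 fold -0.60, SE 0.07, adjusted p = 0.000117). LAMB1 had 46.9, 43.2 and 43.6 TPM with DOX, against 59.5, 59.2 and 59.6 TPM with vehicle (log2 fold -0.41, SE 0.04, adjusted p = 9.09e-05). LAMC1, which completes that trimer, had 144, 143 and 139 TPM with DOX, against 144, 149 and 144 TPM with vehicle, and did not pass (log2 fold -0.04, adjusted p = 0.414). LAMC3 had 1.25, 0.989 and 1.27 TPM with DOX, against 2.23, 1.78 and 1.95 TPM with vehicle (log2 fold -0.46, adjusted p = 0.0199), and lost the call without DOX library 2 (adjusted p = 0.0616) or vehicle library 1 (adjusted p = 0.0712). LAMC3 would not have reached the level without the vehicle libraries, so that a lower value was in part built into its selection. The most abundant alpha and beta chains did not pass the test, LAMA5 having 70.2 ± 2.83 TPM with DOX and 67.6 ± 2.72 TPM with vehicle, and LAMB2 70.9 ± 1.59 TPM with DOX and 67.3 ± 1.69 TPM with vehicle. ITGB1 (131 ± 2.48 TPM with DOX, 126 ± 6.09 TPM with vehicle), ITGA5 (43.1 ± 3.06 TPM with DOX, 41.0 ± 0.955 TPM with vehicle), ITGAE (2.72 ± 0.630 TPM with DOX, 2.13 ± 0.198 TPM with vehicle) and ITGA1 (6.74 ± 0.108 TPM with DOX, 6.97 ± 0.778 TPM with vehicle) did not pass either. ITGA1 exons overlap PELO on the same strand.

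Of the partners, COL17A1, the transmembrane collagen of hemidesmosomes, had 4.59 ± 0.235 TPM with DOX and 0.0671 ± 0.0279 TPM with vehicle (log2 fold 2.39, SE 0.13, adjusted p = 1.82e-06). COL17A1 reached the level through the DOX libraries alone, so that a higher value was built into its selection. It was the 1 gene of the laminin anchoring list past a log2 fold of 1, and 6 of 18 were higher and 8 lower (median log2 fold -0.08). Of all 13229 genes tested 27% were higher, 1.34% of them past a log2 fold of 1, and 23.4% lower (median 0.015). BCAM (log2 fold 0.64) and NID2 (0.52) were higher, and COL7A1, the anchoring fibril collagen, was lower (-0.60). Of 31 focal adhesion genes 10 were higher and 5 lower (median log2 fold 0.05), among them TNS3 (-0.69), TNS1 (-0.49), TLN2 (-0.38) and the kindlin FERMT2 (0.42). Of 13 integrin ligands 4 were higher and 5 lower (median log2 fold -0.13). FN1 had 322 ± 4.23 TPM with DOX and 242 ± 3.58 TPM with vehicle (log2 fold 0.41, adjusted p = 1.16e-05), and EDIL3 (-0.95), TGFB1 (-0.55) and FBN1 (-0.52) were lower.

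Epithelial and mesenchymal markers moved with these chains. EPCAM had 20.0 to 22.5 TPM with DOX and 3.70 to 5.90 TPM with vehicle, and CDH1, E-cadherin, 2.83 to 3.34 TPM with DOX and 0.0441 to 0.362 TPM with vehicle. The 4 epithelial markers, all past the level, summed to 1650 to 1720 TPM with DOX and 836 to 866 TPM with vehicle. The 4 mesenchymal markers summed to 1390 to 1460 TPM with DOX and 2080 to 2200 TPM with vehicle, with VIM, ZEB1 and CDH2 lower and FN1 higher with DOX. The leukocyte markers summed to 105 to 116 TPM with DOX and 110 to 117 TPM with vehicle. Their part in the levels of integrin and laminin genes was not tested.

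Of the 13 genes tested in all 3 comparisons 3 passed the test in each (ITGA4, ITGA6 and ITGAV), and none of these passed in the same direction throughout. ITGA3 had log2 folds below 0 in each, but did not pass with PBRM1 silencing. ITGA4 had log2 folds of 1.06 with PBRM1 silencing, -0.41 with IRF1 silencing and -0.84 with DOX. ITGA6 had 0.75, -1.03 and 0.79 in the same order. ITGAV had 1.06, 0.45 and -0.41. LAMC1 passed in none of the 3. The comparisons share no libraries and sit on different scales, so differences between their folds were not tested.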

How the data were processed

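Total RNA of 18 cell line cultures had been sequenced after preparation with a stranded mRNA kit. The authors deposited 3 tables of TPM with gene symbols as keys. Their processing notes name STAR, GRCh38 and DESeq2, with versions not stated, and the sources used here name no annotation, counter or TPM program. Tables of the authors' DESeq2 comparisons hold fold changes and p-values and were not used. TPM keeps no depth, so the depth is unknown and no counting interval was made.

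Genes with at least 1 TPM in at least 3 of 6 libraries were tested within each table by limma 3.58.1 in R 4.3.3 (two-sided, log2(TPM + 1), mean-variance trend), with Benjamini-Hochberg adjustment over all genes tested. A gene is higher or lower at an adjusted p under 0.05, and past the fold threshold with a log2 fold beyond 1. The code was tested on simulated data. Members of the gene set and the partner lists were chosen with earlier results of these data known. All members past the level are named but 1, which is not reported here, with partners limited to the 4 largest log2 folds per list, apart from FN1 with IRF1 silencing, which was added after its value was seen. Control columns of the PBRM1 table were assigned to their group only.

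Alternatives were a pseudocount of 0.1, no filter, a mean of at least 5 TPM, short noncoding RNAs removed before scaling, trimmed-mean and quantile scaling, no trend, array weights, a replicate block and each library left out. Replicate numbers pair the PBRM1 libraries by the data alone, since same-numbered deviations from the group means correlated at 0.46, 0.31 and 0.29. Gene models came from GENCODE release 29.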

Additional observations from a re-analysis of the deposited data

Results flagged for a closer look

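Chains ITGA4, ITGA5 and ITGA6 were higher in every shPBRM1 library and lower in every shIRF1 library than in their own controls, although both arms are BT-549 cells. ITGA4 had log2 folds of 1.06 with PBRM1 silencing and -0.41 with IRF1 silencing. ITGA5 had 1.13 and -1.16, and ITGA6 had 0.75 and -1.03. The difference between the comparisons was not tested, because the tables were normalized separately.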

How the results depend on the processing

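By limma, in shPBRM1 cells 8 genes were higher, 6 lower and 1 lower past a log2 fold of 1, with a median of 0.12. Without a filter 11 were lower (median -0.001), since more genes were tested, and at a mean of 5 TPM or more 2 were lower, 0 past the fold and 12 partner genes lower (median 0.331), since fewer were. With short noncoding RNAs removed 11 were lower, 2 past the fold, and 32 partner genes lower (median -0.184). Past the fold, 0 were lower by trimmed-mean or quantile scaling (median -0.003 with quantile), 2 with a pseudocount of 0.1 and 0 to 1 as libraries were left out. Array weights, which did not converge in 2 of 3 fits, gave 29 lower partner genes. LAMC1 turned to -0.003 with quantile scaling.

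In shIRF1 cells 1 gene was higher, 6 lower and 3 lower past the fold (median -0.34), with 2 partner genes higher and 14 lower. Without a filter 0 were higher and 12 lower (median -0.035), and at a mean of 5 TPM or more 3 were lower and 8 partner genes. With short noncoding RNAs removed 3 were higher and 13 lower (median -0.521), with 10 partner genes higher and 30 lower. Trimmed-mean scaling gave 9 partner genes higher and 29 lower. Quantile scaling gave 3 genes higher and 1 lower past the fold, with 10 partner genes higher and 25 lower. Array weights gave 2 higher and 11 lower, with 11 and 37 partner genes. As libraries were left out 0 to 1 genes were higher, with 1 to 3 partner genes higher and 9 to 16 lower. ITGB1 turned to 0.084 (short noncoding RNAs removed), 0.043 (trimmed mean) and 0.152 (quantile), and ran from -0.151 to 0.095 as libraries were left out, LAMB2 from -0.015 to 0.114. Without a filter ITGA4 lost its call (adjusted p = 0.0688). The cause of these shifts was not tested.

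Numbers of the IRF1 and MUC1 libraries did not pair them (correlations of -0.21, 0.09 and 0.23, and of 0.05, -0.04 and 0.01). With the number as a replicate block 0 genes were higher and 6 lower in shIRF1 cells, with 1 and 9 partner genes, and 6 higher and 8 lower with DOX. In shPBRM1 cells, where the numbers pair, the block gave 9 higher and 8 lower.

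With DOX 6 genes were higher and 8 lower. Without a filter the median was -0.038, and at a mean of 5 TPM or more 0 genes were lower past the fold, ITGA7 being below that mean. LAMA5 turned to -0.002 with quantile scaling, and ITGA1 ran from -0.1 to 0.037 as libraries were left out. LAMA3 passed without a filter (adjusted p = 0.0379) and without a variance trend (0.0121).

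Taken over chains past the level alone, shares in shPBRM1 cells became 21.4% for LAMA3, 74.2% for LAMA5 and 100% for LAMC1. In shIRF1 cells they became 31.01% for ITGA3, 4.17% for ITGA4, 18.9% for ITGA5, 26.6% for ITGAV, 97.1% for ITGB1, 37.6% for LAMA3, 62.4% for LAMA5 and 100% for LAMC1. With DOX they became 12.9% for LAMA1 and 85.5% for LAMA5. Depth is unknown, so low TPM values carry no counting error here.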

Other observations

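Of the 25 chains below the level in the IRF1 table, 3 were higher and 9 lower in every shIRF1 library than in any control library, and in the PBRM1 table, of 21 such chains, 2 were higher and 5 lower in every shPBRM1 library. In the MUC1 table, of 15 such chains, 0 were higher and 2 lower in every DOX library than in any vehicle library. Among all genes at the level such separation was common, with 8.9% higher and 25% lower in the IRF1 table and 26.5% higher and 35.4% lower in the PBRM1 table. In the MUC1 table it was 31.5% higher and 27.7% lower. The share among all genes below the level was not counted, so these shares are no like background for the chains. Examples follow. In the IRF1 table LAMB3 had 0.152, 0.204 and 0.188 TPM in shIRF1 cells, against 0.478, 0.289 and 0.356 TPM in control cells. ITGB3 had 0.382, 0.512 and 0.426 TPM in shIRF1 cells, against 1.01, 0.769 and 0.756 TPM in control cells. ITGA10, a collagen receptor chain, had 0.862, 1.09 and 0.889 TPM in shIRF1 cells, against 0.750, 0.610 and 0.535 TPM in control cells. In the PBRM1 table LAMB3 had 0.180, 0.131 and 0.123 TPM in shPBRM1 cells, against 0.414, 0.421 and 0.387 TPM in control cells. ITGB8 had 0.131, 0.106 and 0.134 TPM in shPBRM1 cells, against 0.322, 0.250 and 0.259 TPM in control cells. These genes were chosen after their values were seen. With no filter, limma gave adjusted p of 0.0441 for LAMB3, 0.0255 for ITGB3 and 0.0866 for ITGA10 in the IRF1 table, and of 0.000214 for LAMB3 and 0.00178 for ITGB8 in the PBRM1 table.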
